A study of Mus musculus with 12 samples.

Results

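The mitosis genes described here are 46 genes whose products drive entry into mitosis, build the spindle, attach and separate the chromosomes and divide the cell, with Ube2c, Ccnb1 and Birc5 as their markers. They were chosen by name with earlier results of these data known, so the counts below are not independent support. All 46 were found by symbol among the 23235 gene rows of the deposited tables. RNA was sequenced from tongues of 31-week-old C57BL/6 mice, 12 samples in 4 groups of 3, and the labels do not say whether each sample is a separate animal. The groups are labelled V.C./Untr., V.C./EtOH, 4-NQO/Untr. and 4-NQO/EtOH. EtOH is ethanol, 4-NQO (4-nitroquinoline oxide) is a chemical carcinogen given to mice to bring on oral tumours, and the labels do not spell out V.C. The tables hold 1 level per gene for each of 4 numbered groups, and no source used here links a number to a treatment, so the groups are called by number and no treatment is named. Each level is the authors' value for a whole group. The tissue is tongue, so muscle, epithelium, gland, vessel and blood cells all contribute RNA. Neither the depth nor any level of a single sample is known here, so the spread between samples enters only through the authors' own test.

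Mitosis is driven by cyclin B and its partner kinase CDK1. The spindle checkpoint holds the cell until every chromosome is attached, after which the anaphase-promoting complex, an E3 ubiquitin ligase, marks securin and cyclin B for destruction and the sister chromatids part. Most genes of this programme are transcribed in G2 and M phase and are near silent in resting cells, under the DREAM complex, the MYB-MuvB complex and FOXM1 acting on CHR elements and NF-Y boxes in their promoters. In the tongue, dividing cells lie mainly in the basal layer of the stratified epithelium, while the muscle that makes up most of the organ does not divide.

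Nearly all of these genes were higher in groups 3 and 4 than in groups 1 and 2. Over groups 1 to 4 the median level of the members was 0.775, 1.16, 3.83 and 3.59 FPKM (fragments per kilobase of transcript, scaled to depth). Members at 1 FPKM or more numbered 20, 27, 44 and 43 in the same order. On FPKM itself the median member was 5.38-fold higher in group 3 and 5.07-fold higher in group 4 than in group 1. In bulk RNA, fewer cells of a type and less RNA per cell cannot be told apart.

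To pass, a gene needed a valid test by the authors with a deposited q-value under 0.05, and a level of 1 FPKM or more in at least 1 of the groups compared. In group 3 against group 1, 28 members were higher and 0 lower, where 2.52% of all 13114 genes tested were higher and 37 genes were lower. Group 4 against group 1 gave 35 members higher and 0 lower, beside 5% of all genes higher and 512 of 13111 lower. Against group 2, 11 members were higher in group 3, beside 1.61% of all genes, and 28 in group 4, beside 3.31%. These counts depend on the variance model and threshold: with 1 variance per gene for all groups they were 20 and 16, and at q under 0.01 they were 1 and 16. With a filter of 5 FPKM, which fewer members reach, 12 members passed in group 3 and 14 in group 4 against group 1, and 12 in group 4 against group 2. Of the 44 members tested in group 3 against group 1, 24 reached 1 FPKM only in group 3, so the filter favoured a rise in them. Among the 20 members already at 1 FPKM or more in group 1, 9 were higher in group 3 and 13 in group 4. Among the 27 at 1 FPKM or more in group 2, 8 were higher in group 3 and 17 in group 4. No share of all genes under the same limits is given for these subsets or for the other settings, so their counts stand without a baseline. The 4 comparisons share groups and are not independent of each other.

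**Figure D1:**
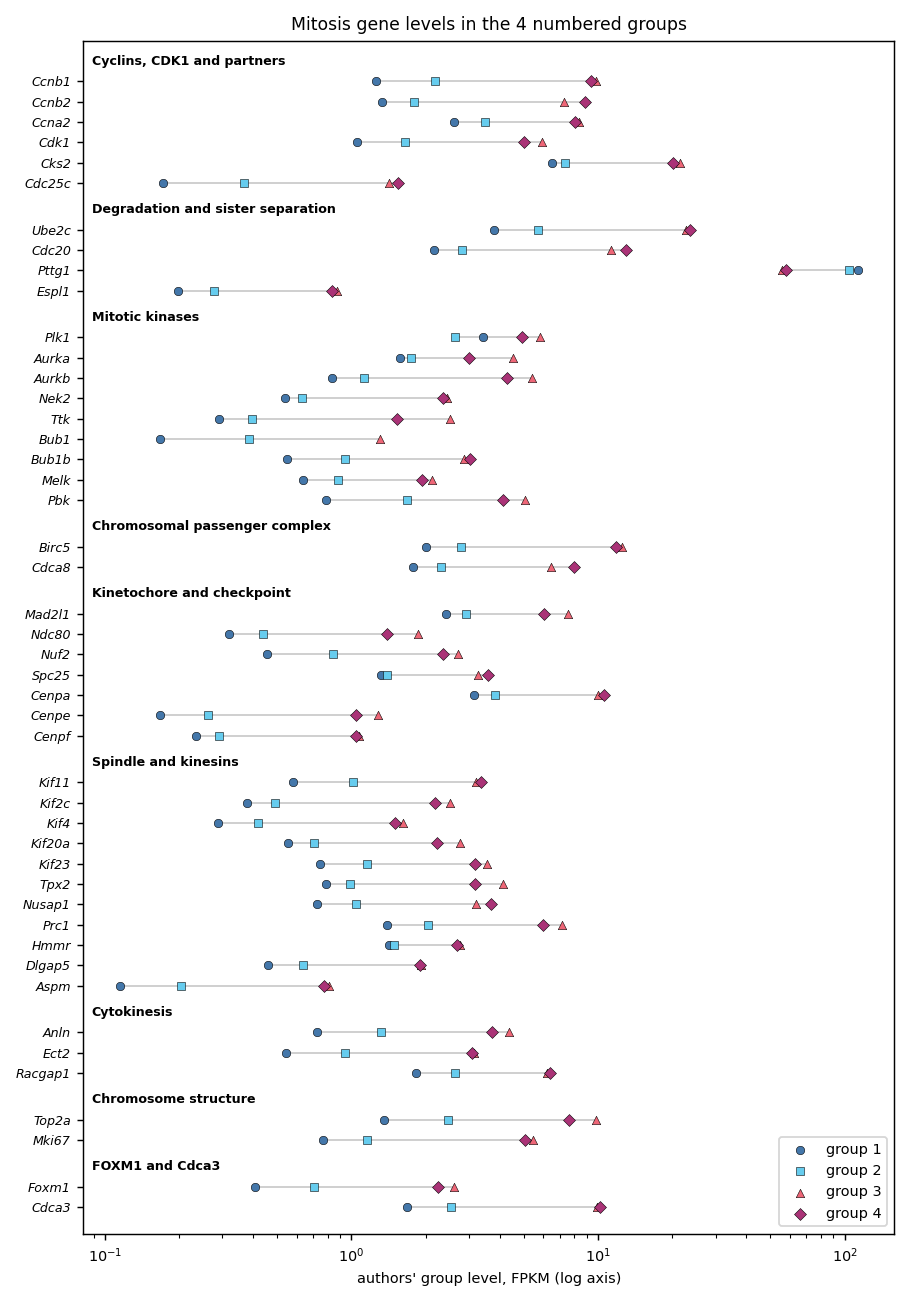
Level of each of the 46 mitosis genes in the 4 numbered groups, in FPKM on a log axis, by role, with 1 point per gene and group (the authors' value for the group). Groups 3 and 4 lie to the right of groups 1 and 2 for 44 of the 45 members with 4 levels, and Pttg1 runs the other way.

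Contrasts of 2 groups with the other 2 used all 4 levels of a gene. A gene needed 1 FPKM or more in at least 1 of the 4 groups. In group 1, 26 members lay below 1 FPKM, and in group 2, 19 did. Those below it in both entered only through group 3 or 4, so the filter favoured a rise in them. With groups 3 and 4 set against groups 1 and 2, 36 of the 43 members tested were higher and 1, Pttg1, was lower, where 6.9% of all genes were higher and 8.78% lower (normal deviate from the authors' statistics, Benjamini-Hochberg over 13115 genes). The median difference over the members was 1.20 on the log2(FPKM + 1) scale, and -0.07 over all genes tested. With groups 2 and 4 set against 1 and 3, 0 members passed by the same test and 0 had an unadjusted p under 0.05, where 0.183% of all genes passed and 1.14% had such a p. With groups 2 and 3 set against 1 and 4, again 0 members passed and 0 had such a p, where 0.137% and 0.740% of all genes did. The median SE of a member in a contrast was 0.29, so small differences could not be told from 0. In these 2 contrasts the differences were small, with medians of 0.09 and 0.18, and lay above 0 for 32 and 39 of 43 members, beside 46.2% and 61.6% of all genes.

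**Figure D2:**
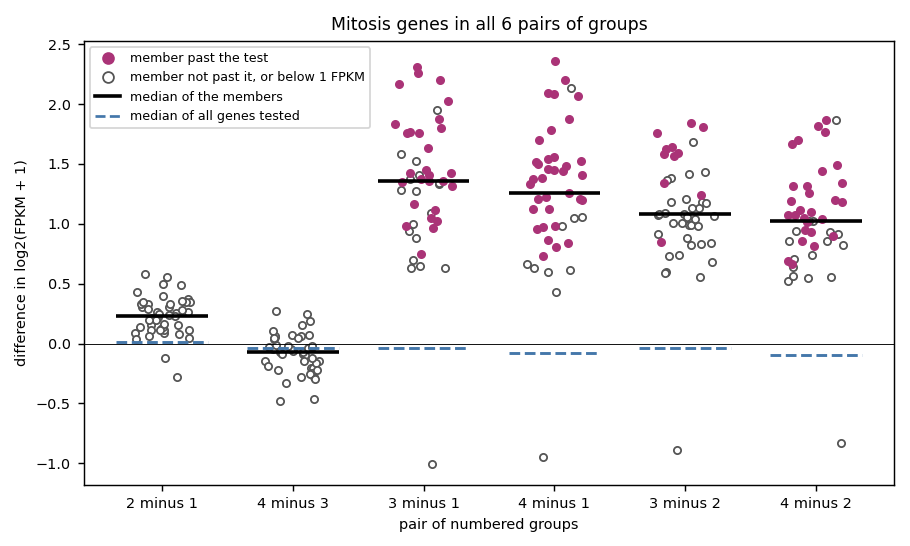
Difference in log2(FPKM + 1) of each member in the 6 pairs of groups, with filled points past the authors' test, the members' median as a black line and the median of all genes tested as a dashed line. The 4 pairs of group 3 or 4 with group 1 or 2 have medians of 1.02 to 1.36, and the other 2 pairs have medians of 0.23 and -0.07.

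Promoter sequences are shown for a few members, with 2 kinds of short word known from cell cycle promoters; their part in the levels was not tested. RefSeq promoters of GRCm38.p6, from 250 bases before to 50 after the start, were found for 38 members. Not matched were Ccna2, Cdc25c, Aurkb, Pbk, Kif20a, Tpx2, Dlgap5 and Foxm1. The NF-Y box was searched as CCAAT and the CHR element as TTTGAA or TTCGAA, each on both strands, and CCAAT and a CHR word can share at most 1 base. The 120 bases before the start are printed 5′ to 3′ in the direction of transcription, in lower case with CCAAT, the CHR words and their reverse complements in capitals. The first 5 genes were higher in groups 3 and 4 than in group 1. Birc5 was as well but holds neither word, and Pttg1 had lower levels.
Ube2c: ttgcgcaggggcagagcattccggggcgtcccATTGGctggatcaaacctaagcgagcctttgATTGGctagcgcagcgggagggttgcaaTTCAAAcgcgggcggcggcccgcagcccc
Ccnb1: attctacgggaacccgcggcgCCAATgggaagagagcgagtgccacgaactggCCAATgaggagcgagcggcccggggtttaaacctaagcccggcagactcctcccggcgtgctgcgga
Ccnb2: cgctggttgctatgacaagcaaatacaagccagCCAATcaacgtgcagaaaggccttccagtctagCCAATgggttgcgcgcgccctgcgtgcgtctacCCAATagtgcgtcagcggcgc
Cdk1: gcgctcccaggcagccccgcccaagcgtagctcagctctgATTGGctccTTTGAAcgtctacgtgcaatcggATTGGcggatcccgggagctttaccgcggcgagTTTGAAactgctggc
Top2a: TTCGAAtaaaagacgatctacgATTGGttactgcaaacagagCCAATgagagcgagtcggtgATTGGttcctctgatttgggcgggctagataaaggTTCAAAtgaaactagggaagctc
Birc5: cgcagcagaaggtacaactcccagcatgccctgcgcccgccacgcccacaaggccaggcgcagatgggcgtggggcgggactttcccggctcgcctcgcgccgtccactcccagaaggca
Pttg1: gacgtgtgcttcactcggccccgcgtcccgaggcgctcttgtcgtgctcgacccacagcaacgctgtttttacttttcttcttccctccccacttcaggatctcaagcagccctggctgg
They lie at chr2:164769809-164769928 on the plus strand for Ube2c, chr13:100786487-100786606 minus for Ccnb1, chr9:70421555-70421674 minus for Ccnb2 and chr10:69352913-69353032 minus for Cdk1. Those of Top2a, Birc5 and Pttg1 lie at chr11:99024190-99024309 minus, chr11:117849117-117849236 plus and chr11:43425982-43426101 minus.

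CCAAT occurred in 29 of the 38 member promoters (76.3%) and in 37.8% of 27025 promoters of the same length. At least 2 copies occurred in 21 members (55.3%), and in 11.98% of all promoters. A CHR word occurred in 28 members (73.7%) and in 19.4% of all, TTTGAA in 27 of them and TTCGAA in 3. Both kinds of word stood together in 25 members (65.8%) and in 7.57% of all promoters. The CCAAT copies lay mostly just upstream, 56 of 71 within 150 bases before the start, with a median first base at -65. CHR words lay around the start, 27 of 37 within 50 bases on either side, with a median at position 2. Neighbouring CCAAT copies in the same promoter were a median of 33 bases apart over 42 gaps in 21 genes, and 14 gaps were of 28 to 36 bases. In the printed bases, the CCAAT copies of Ube2c and Cdk1 lay 31 and 32 bases apart, with a CHR word between them and the start. Cdk1 also had a CHR word between its copies. The CCAAT copies of Ccnb1 and Ccnb2 lay 32 and 33 bases apart, with no CHR word printed. Outside the printed bases, Ccnb2 had TTTGAA with first bases at -167 and 4, while Ccnb1 had no CHR word in the window. In Top2a the printed copies were 20 bases apart, with a CHR word on either side of them. Neither word was found in the windows of Pttg1, Birc5, Melk, Mad2l1, Nuf2 and Nusap1. Of these, Birc5 and Nuf2 passed as higher in both group 3 and group 4 against group 1. Melk and Nusap1 passed against group 1 in group 4 alone, and Mad2l1 and Pttg1 in neither. A match is a run of letters and not a measured binding site.

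**Figure D3:**
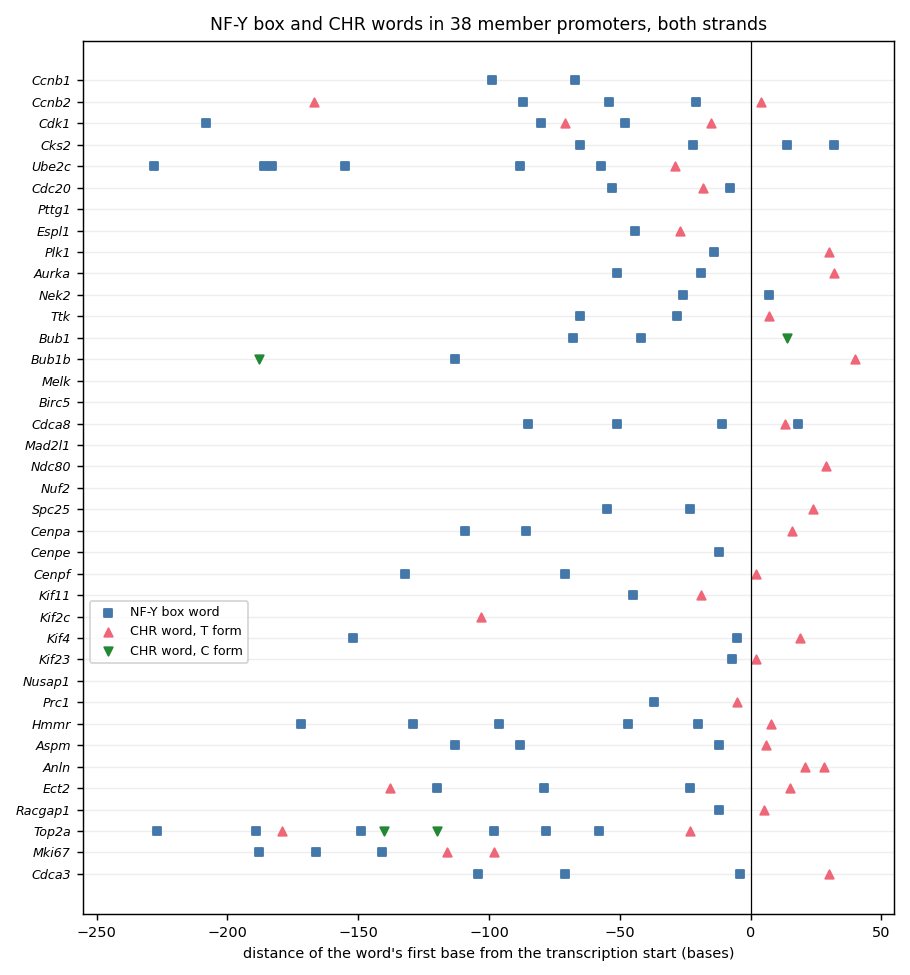
Position of the NF-Y box and CHR words in the 38 member promoters, in bases from the transcription start, on both strands, with 1 row per gene. NF-Y words gather upstream of the start, with a median at -65, and CHR words around it, with a median at 2.

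Cyclin B, its kinase and their partners rose together. All 6 members of this role passed in group 4 against group 1, with differences of 1.12 to 2.20, and 4 of 6 passed in group 3 against group 1. Ccnb1, cyclin B1, stood at 1.25 and 2.18 FPKM in groups 1 and 2 and at 9.79 and 9.35 in groups 3 and 4. Its difference from group 1 was 2.26 ± 0.48 (SE) in group 3 and 2.20 ± 0.31 in group 4, with q-values of 2.24e-05 and 6.11e-11 in the authors' deposited table. The gene lies at chr13:101548694-101556441 in mm9. Ccnb2, cyclin B2, had levels of 1.33, 1.79, 7.29 and 8.85 FPKM in groups 1 to 4, and passed in all 4 pairs that cross the 2 sets of groups. Cdk1, the kinase that both cyclins activate, had 1.05, 1.66, 5.94 and 5.03 FPKM and passed in 3 of those pairs, with a difference of 1.38 ± 0.48 in the pair it missed, group 3 against group 2. Per length, Cdk1 stood below Ccnb1 in every group.

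Of the other partners, Cks2, a small subunit that docks CDK1 to its substrates, was the second highest member in group 1 and had 6.5, 7.34, 21.5 and 20.2 FPKM. Group 4 was above groups 1 and 2 by the test, and group 3 exceeded group 1 by 1.59 ± 0.54 without passing. Cyclin A2, from Ccna2, which acts in S phase and early mitosis, had 2.61, 3.47, 8.36 and 8.06 FPKM and passed only in group 4 against group 1; its row shares a merged locus with Exosc9, which ran from 10.7 to 11.5 FPKM over the groups. Cdc25c, a phosphatase that switches CDK1 on, was low throughout at 0.173, 0.367, 1.42 and 1.55 FPKM. It had the largest fold in group 4 against group 1, 8.97 on FPKM, from a group 1 level far below 1 FPKM.

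The genes of protein destruction held both the largest rise on the log2(FPKM + 1) scale and the only fall in the list. Ube2c, the ubiquitin-conjugating enzyme of the anaphase-promoting complex, lies at chr2:164595429-164598402 in mm9. It had 3.78 and 5.73 FPKM in groups 1 and 2 and 22.7 and 23.6 in groups 3 and 4. With a difference from group 1 of 2.31 ± 0.52 in group 3 and 2.36 ± 0.35 in group 4, it had the largest difference on that scale in both, while its folds on FPKM, 5.99 and 6.23, were below those of Ccnb1, 7.80 and 7.45. The authors' deposited table gives q-values of 0.000499 and 7.34e-09 for these, and it passed against group 2 as well.

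Cdc20, which brings substrates to the complex, had 2.17, 2.82, 11.3 and 12.9 FPKM, lower per length than Ube2c in every group. Its differences from group 1 were 1.95 ± 1.34 and 2.14 ± 0.93 in groups 3 and 4 and did not pass. The row of Cdc20 shares a merged locus with Elovl1, a fatty acid elongase that stood at 53.3, 52.5, 105 and 115 FPKM. Whether reads were split between the 2 genes was not tested. Espl1, separase, the protease that cuts cohesin, stayed below 1 FPKM at 0.198, 0.276, 0.877 and 0.836 and was not counted as tested, with q-values of 0.0372 and 0.00333 for groups 3 and 4 against group 1 in the authors' deposited table.

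Pttg1, securin, the inhibitor of separase that the complex destroys, ran against the rest. Its level was 113 and 104 FPKM in groups 1 and 2 and 55.6 and 58.1 in groups 3 and 4, the highest of the members in every group. The differences from group 1 were -1.01 ± 0.45 and -0.95 ± 0.31, with q-values of 0.310 and 0.0600 in the authors' deposited table, so neither pair passed. Over all 4 groups it was lower by 0.92 ± 0.28 in groups 3 and 4, with an adjusted p of 0.0112 (normal deviate, Benjamini-Hochberg). Mature muscle markers also had lower levels there: the summed level of 9 of the 10 (Acta1 exceeded the authors' read limit) was 27592, 25441, 12389 and 14936 FPKM in groups 1 to 4. Against group 1, 0 of the 9 tested passed in group 3 by the authors' test, with 2 unadjusted p under 0.05, and 1, Pvalb, was lower in group 4. All genes tested gave 37 of 13114 lower in group 3 and 512 of 13111 in group 4. The part of muscle RNA in the Pttg1 level was not tested. Without Pttg1 the summed level of the members rose from 54.4 FPKM in group 1 and 73.0 in group 2 to 243 in group 3 and 230 in group 4 (there also without Bub1), and with it from 167 and 177 to 299 and 288. The securin gene therefore made up most of the summed level of the list in groups 1 and 2.

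Among the 9 mitotic kinases, 6 passed in each of groups 3 and 4 against group 1, and Plk1 and Aurka were not among them. Plk1, polo-like kinase 1, which acts from centrosome maturation to cytokinesis, had 3.41, 2.62, 5.83 and 4.93 FPKM and was the 1 member besides Pttg1 with a lower level in group 2 than in group 1. Aurka, the centrosomal aurora kinase, had 1.58, 1.74, 4.51 and 3.00 FPKM. Both missed the test in all 4 pairs, and in the contrast of groups 3 and 4 with 1 and 2 their differences were 0.67 and 0.82 with adjusted p of 0.0948 and 0.0507 (normal deviate, Benjamini-Hochberg).

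Aurkb, the kinase of the chromosomal passenger complex, differed more. At 0.832, 1.12, 5.38 and 4.27 FPKM it was higher in groups 3 and 4 in all 4 pairs, by 1.80 ± 0.49 and 1.52 ± 0.33 against group 1. Ttk, the checkpoint kinase MPS1, also passed in all 4, at 0.290, 0.394, 2.52 and 1.53 FPKM, and had the largest fold in group 3 against group 1, 8.70 on FPKM. Its level in group 4 was 0.48 below that in group 3 on the log2(FPKM + 1) scale, the largest such gap in the list, and did not pass.

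Of the remaining kinases, Nek2, which splits the centrosomes, had 0.539, 0.629, 2.45 and 2.35 FPKM. Bub1b, the checkpoint protein BUBR1, had 0.547, 0.943, 2.85 and 3.02, and each of these passed in 3 of the 4 pairs. Pbk, a mitotic kinase also called TOPK, had 0.787, 1.68, 5.08 and 4.11 FPKM, with the largest difference of group 2 from group 1 among the members, 0.58 ± 0.24. Melk, a kinase of dividing and progenitor cells, had 0.635, 0.878, 2.13 and 1.93 and passed in group 4 against group 1 alone. Bub1, a kinetochore kinase, had 0.168, 0.386 and 1.30 FPKM in groups 1 to 3 and passed in group 3 against group 1; the authors' fit failed for it in group 4, so no level is given there.

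**Figure D4:**
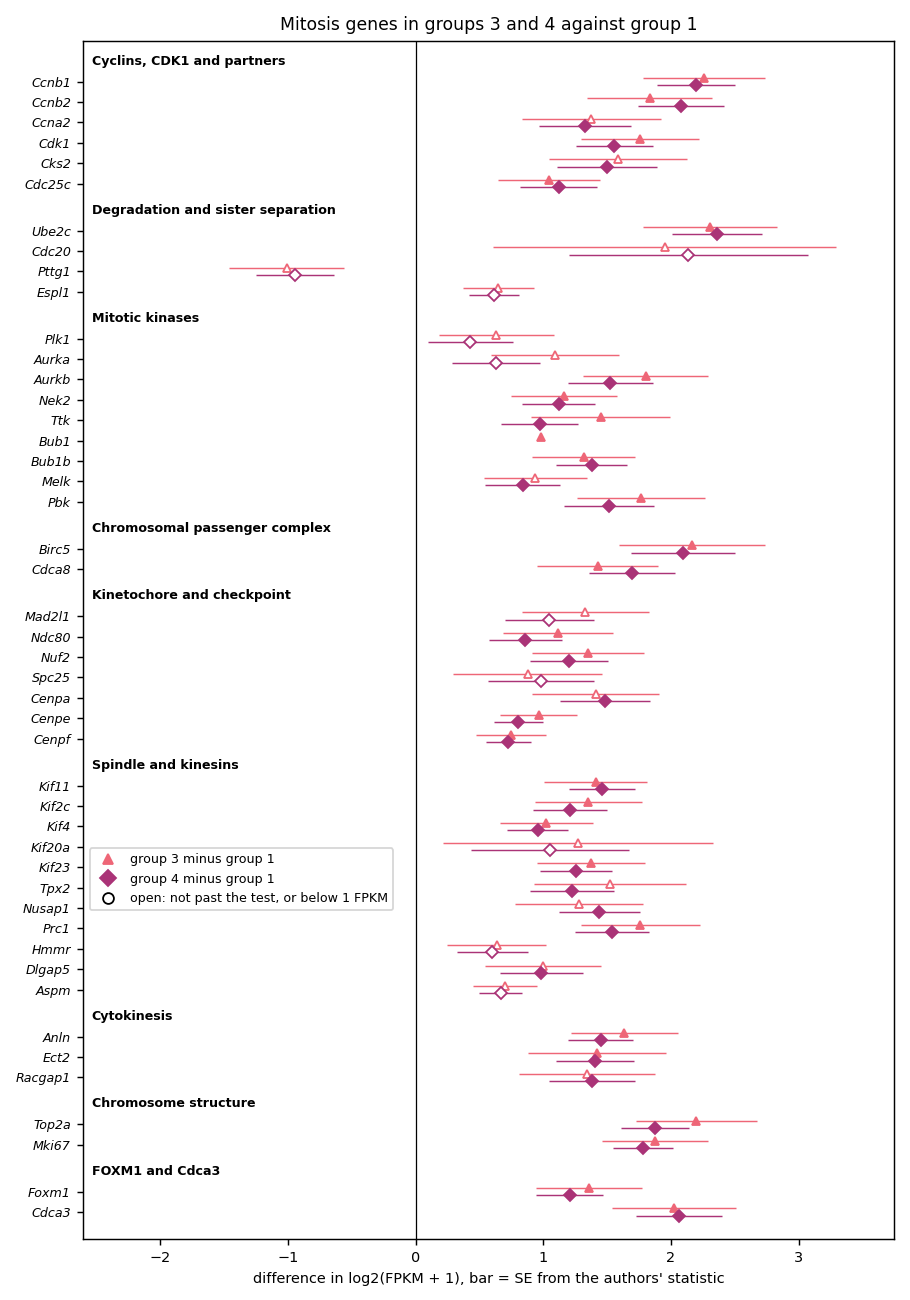
Difference in log2(FPKM + 1) of groups 3 and 4 from group 1 for each member, by role, with SE bars from the authors' statistic (none for Bub1) and filled symbols past the test. Ube2c, Ccnb1 and Birc5 lie between 2.10 and 2.36, Pttg1 lies near -1, and the bars of Cdc20 and Kif20a are the widest.

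The chromosomal passenger complex corrects faulty attachments and guides cytokinesis. Birc5, survivin, had 2.01 and 2.78 FPKM in groups 1 and 2 and 12.5 and 11.9 in groups 3 and 4. Its difference from group 1 was 2.17 ± 0.57 and 2.10 ± 0.41, and it passed in all 4 pairs; it lies at chr11:117710551-117717057 in mm9. Cdca8, borealin, had 1.78, 2.31, 6.46 and 8.0 FPKM and passed in 3 pairs. With Aurkb, these 3 subunits all passed in both groups 3 and 4 against group 1.

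Kinetochore and checkpoint genes had the smallest median difference of the 9 roles in the contrast of groups 3 and 4 with 1 and 2, 0.93. Of the 7, 4 passed in group 3 and 5 in group 4 against group 1, and 6 in that contrast. Cenpa, the histone H3 variant that marks centromeres, was the highest at 3.13, 3.83, 9.98 and 10.6 FPKM and passed in group 4 against both groups 1 and 2. Mad2l1, the checkpoint protein MAD2, had 2.41, 2.91, 7.58 and 6.05 FPKM and passed in no pair, with an adjusted p of 0.00595 in the contrast (normal deviate, Benjamini-Hochberg). The 2 differed little in size, at 1.34 for Cenpa and 1.09 for Mad2l1 in that contrast.

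Outer kinetochore genes were near or below 1 FPKM in groups 1 and 2. Ndc80 had 0.318, 0.437, 1.86 and 1.39 FPKM, and Nuf2 had 0.454, 0.845, 2.71 and 2.35. Spc25, another subunit of the same NDC80 complex, had 1.32, 1.40, 3.27 and 3.59 and passed in no pair. Ndc80 and Nuf2 each passed in both groups 3 and 4 against group 1. The large proteins of the corona were lowest of this role. Cenpe, a kinesin that moves chromosomes to the spindle equator, had 0.167, 0.263, 1.28 and 1.04 FPKM and passed in all 4 pairs. Cenpf had 0.234, 0.291, 1.07 and 1.04 and passed in 3. For both, the levels of groups 3 and 4 lay only just above the limit of 1 FPKM.

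Spindle genes were 11 of the members, and 5 passed in group 3 and 8 in group 4 against group 1. Prc1, which bundles the midzone microtubules, was the highest on average at 1.40, 2.05, 7.13 and 5.97 FPKM, with differences from group 1 of 1.76 ± 0.46 and 1.54 ± 0.29. Tpx2, which activates Aurora A, had 0.785, 0.986, 4.13 and 3.18 FPKM and passed in group 4 against both groups 1 and 2. Nusap1, a microtubule-binding protein, had 0.728, 1.04, 3.20 and 3.69 and passed in the same 2 pairs; its row shares a merged locus with Oip5, which stayed near or below 1 FPKM.

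Motor proteins followed the same order. Kif11, the motor that pushes the spindle poles apart, had 0.582, 1.02, 3.21 and 3.36 FPKM. Kif23, a midzone motor, had 0.749, 1.16, 3.53 and 3.17, and Kif4, a chromosome-bound motor, 0.286, 0.419, 1.62 and 1.5. These 3 each passed in 3 of the 4 pairs. Kif2c, which takes microtubules apart at centromeres, passed in all 4 at 0.377, 0.490, 2.52 and 2.19 FPKM. Kif20a, a cytokinesis motor, had much the same levels, 0.552, 0.706, 2.74 and 2.22, but errors of 1.06 and 0.62 in the differences of 1.27 and 1.05 from group 1, and it did not pass. Its row shares a merged locus with Brd8 and Cdc23, which ran from 4.64 to 5.12 and from 6.15 to 7.43 FPKM over the groups.

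Of the other spindle members, Dlgap5, a stabiliser of the fibres at the kinetochore, had 0.461, 0.635, 1.92 and 1.89 FPKM and passed in group 4 against group 1 alone. Hmmr, a spindle and hyaluronan-binding protein, had 1.42, 1.49, 2.76 and 2.67 and passed in no pair. Its differences from group 1, 0.63 ± 0.39 and 0.60 ± 0.28, were with those of Plk1 the smallest positive differences in the list. Aspm, which organises the spindle poles, stayed below 1 FPKM in every group at 0.116, 0.204, 0.810 and 0.772 and so was not counted, with q-values of 0.000914 and 3.76e-06 for groups 3 and 4 against group 1 in the authors' deposited table.

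All 3 cytokinesis genes passed in group 4 against group 1. Anln, anillin, the scaffold of the contractile ring, had 0.722, 1.32, 4.35 and 3.7 FPKM. Ect2, the activator of RhoA at the cell equator, had 0.543, 0.942, 3.13 and 3.08, and Racgap1, the centralspindlin subunit that recruits it, 1.83, 2.63, 6.19 and 6.38. Racgap1 differed from group 1 by 1.34 ± 0.53 in group 3 and did not pass there, while Anln and Ect2 did.

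Both chromosome structure genes passed in all 4 pairs. Top2a, topoisomerase II alpha, which untangles sister DNA, had 1.36, 2.47, 9.82 and 7.63 FPKM. Its differences from group 1 were 2.20 ± 0.47 and 1.87 ± 0.27. Mki67, the gene of the proliferation antigen Ki-67 that coats mitotic chromosomes, had 0.764, 1.15, 5.46 and 5.07 FPKM, and differed by 1.87 ± 0.41 and 1.78 ± 0.23. Foxm1, the transcription factor that activates many members, was low, at 0.405, 0.703, 2.60 and 2.25 FPKM, and passed in 3 pairs; the other gene at its merged locus, 4933413G19Rik, was at 0.0498 FPKM or below in every group. Cdca3, which promotes mitotic entry, had 1.68, 2.52, 9.88 and 10.2 FPKM and passed in all 4.

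Over the 4 pairs that set group 3 or 4 against group 1 or 2, 11 members passed in all 4, namely Ccnb1, Ccnb2, Ube2c, Aurkb, Ttk, Birc5, Cenpe, Kif2c, Top2a, Mki67 and Cdca3. Another 13 passed in 3 pairs, 7 in 2 and 5 in 1. The 10 that passed in none were Cdc20, Pttg1, Espl1, Plk1, Aurka, Mad2l1, Spc25, Kif20a, Hmmr and Aspm. Among these, Espl1 and Aspm were below 1 FPKM throughout, and Cdc20 and Kif20a are 2 of the 5 members at a merged locus. The others at such a locus, Ccna2, Nusap1 and Foxm1, passed in 1, 2 and 3 pairs. In level alone, 44 of the 45 members with 4 levels had groups 3 and 4 both above groups 1 and 2, an order that 34.4% of the 13386 genes at 1 FPKM shared.

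Group 2 lay slightly above group 1. Its level was higher for 44 of the 46 members, beside 54.3% of all genes tested, with a median difference of 0.23 over the members and 0.02 over all genes. By the authors' test 0 of the 27 members tested passed, where 0.899% of all genes did in either direction. An unadjusted p under 0.05 was found for 6 members, all higher in group 2, namely Ccnb1, Pbk, Kif11, Anln, Top2a and Mki67, and for 3.40% of all genes. Top2a came nearest, with 1.36 against 2.47 FPKM, a difference of 0.56 ± 0.18 and a q-value of 0.0581 in the authors' deposited table. Since the members share samples and are transcribed together, the count of levels in 1 direction is not a count of independent results. On FPKM the median member was 1.39-fold higher in group 2.

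Groups 3 and 4 could not be told apart on these genes. By the authors' test 0 of 43 members passed in group 4 against group 3, 0 had an unadjusted p under 0.05, and 0.294% of all genes passed in either direction while 0.813% had such a p. The level was higher in group 4 for 13 members and lower for 32, with a median difference of -0.07, and -0.04 over all genes. Intervals were wide: the 95% interval of the difference was -1.06 to 1.17 for Ube2c, -1.10 to 0.98 for Ccnb1 and -1.33 to 1.18 for Birc5. A difference of up to about 1 on the log2 scale in either direction therefore lies within these errors. The largest gaps were those of Ttk, at -0.48, Aurka, at -0.46, and Top2a, at -0.33, and on the other side Cdca8, at 0.27, Ccnb2, at 0.25, and Cdc20, at 0.19.

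Other genes of the cell cycle were set beside the members from lists chosen by function, also with earlier results of these data known. Of 71 further mitosis genes, 19 of 59 tested were higher in group 3 and 26 of 52 in group 4 than in group 1, beside 2.52% and 5% of all genes, and 0 were lower, with median folds of 3.78 and 3.36 on FPKM. Ckap2l, a spindle protein, had 1.36, 2.21, 6.44 and 5.50 FPKM, and Tacc3, which crosslinks spindle microtubules, 1.44, 1.74, 6.13 and 6.39. Subunits of the anaphase-promoting complex and of cohesin that are present through the whole cycle gave few calls. Of 23, 0 were higher in either group, with median folds of 1.05 and 1.01 and 1 and 3 unadjusted p under 0.05 by the authors' test. Anapc13 was the 1 of these that fell, in group 4, at 203 FPKM in group 1 and 87.2 in group 4. All genes tested gave 37 of 13114 lower in group 3 and 512 of 13111 in group 4 than in group 1.

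Genes of the earlier phases gave fewer calls than the members. Of 41 DNA replication genes, 3 of 39 tested were higher in group 3 and 4 of 37 in group 4 than in group 1, beside 2.52% and 5% of all genes, with median folds of 1.96 and 1.72; Mcm5, a subunit of the replicative helicase, had 2.32, 3.33, 8.88 and 6.52 FPKM. Ung, a uracil glycosylase, was lower in group 4 than in group 1, as were 512 of all 13111 genes tested. By the authors' test, 15 of the 39 had an unadjusted p under 0.05 in group 3 against group 1, beside 12.05% of all genes. In group 4 against group 1, 15 of the 37 did, beside 24.55%. In the contrast of groups 3 and 4 with 1 and 2, 8 of 39 replication genes were higher and 1 lower. Of all genes, 6.9% were higher and 8.78% lower there. Among 26 G1 cyclin, E2F and RB family genes, median folds were 1.27 and 1.16. Against group 1, 2 of 24 tested were higher in group 3 and 3 of 23 in group 4, where 1 was lower, beside 2.52% and 5% of all genes higher. Ccne1, cyclin E1, and Mybl2, the MYB factor of the complex that activates mitotic genes, were higher in both. Mybl2 had 0.399, 0.548, 2.96 and 1.90 FPKM. Of 8 CDK inhibitors, all tested, 1 was higher in group 3 and 2 in group 4 than in group 1, beside the same shares of all genes. Cdkn2a had 0.497, 0.284, 10.01 and 4.34 FPKM and was higher in both groups 3 and 4. Cdkn3, a phosphatase that acts on CDKs, had 0.738, 0.841, 3.73 and 4.44 and was higher in group 4. The difference between these lists and the members was not tested.

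**Figure D5:**
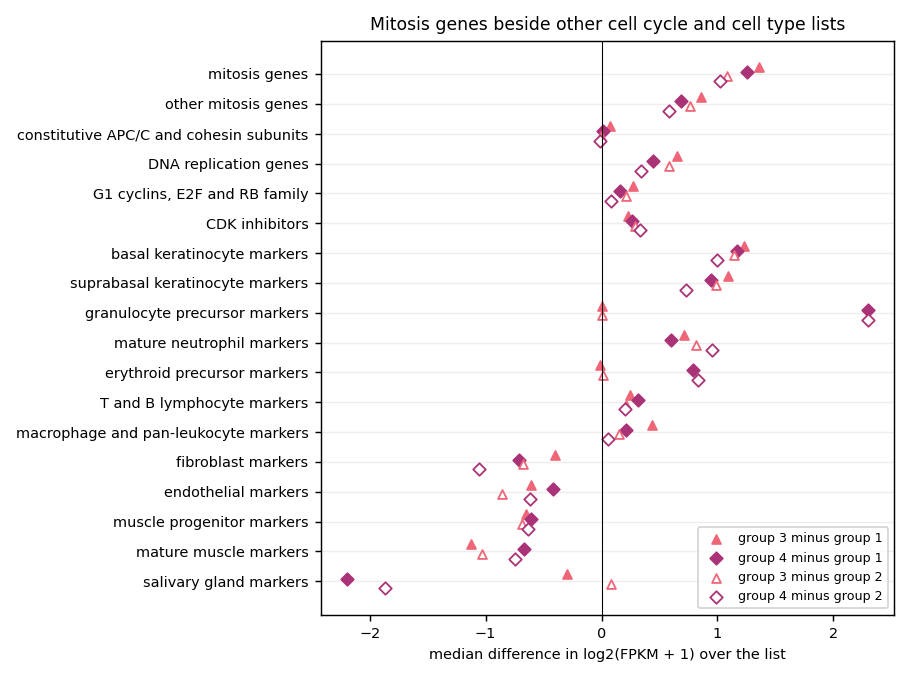
Median difference in log2(FPKM + 1) over each list of cell cycle genes or cell type markers, for groups 3 and 4 against groups 1 and 2, with 1 symbol per pair. The mitosis genes have medians of 1.02 to 1.36, basal keratinocyte markers lie close to them on this scale, and muscle and salivary gland markers lie mostly below 0. The scale understates differences of low genes. On FPKM the median folds of groups 3 and 4 against group 1 were 5.38 and 5.07 for the mitosis genes and 2.50 and 2.42 for basal markers.

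Markers of other cell types were set beside the members. Of 15 basal keratinocyte markers, 3 of 14 tested were higher in group 3 and 8 of 15 in group 4 than in group 1. All genes gave shares of 2.52% and 5%. The summed level of 14 basal markers was 790, 907, 1856 and 1719 FPKM in groups 1 to 4. Their median folds on FPKM, 2.50 and 2.42, were below the 5.38 and 5.07 of the mitosis genes, and the difference was not tested. A set of 11 suprabasal markers summed to 4007, 4244, 7657 and 7448 FPKM, while Krt13 exceeded the authors' read limit in groups 3 and 4. Of the suprabasal markers, 2 of 12 tested were higher in group 3 and 3 of 11 in group 4 than in group 1, with median folds of 2.14 and 1.92. Fibroblast markers summed to 608, 710, 365 and 367 FPKM, endothelial markers to 92.8, 106, 54.0 and 68.2, and muscle progenitor markers to 50.8, 57.1, 29.8 and 29.0. Few of these passed the authors' test against group 1, where 37 of all 13114 genes were lower in group 3 and 512 of 13111 in group 4. Among the 8 fibroblast markers, 0 passed in group 3, with 1 unadjusted p under 0.05, and 2, Col3a1 and Lum, were lower in group 4. Of 8 endothelial markers 0 passed in either group, with 1 such p in each, and of 4 muscle progenitor markers tested 0 passed, with 0 and 3 such p. In group 4 against group 2, Col1a1, Col1a2, Col3a1, Lum and Myod1 were lower, where 295 of 13124 genes were. In the contrast of groups 3 and 4 with 1 and 2, 3 of 8 fibroblast, 3 of 8 endothelial and 2 of 4 muscle progenitor markers were lower. Of all genes, 8.78% were lower in that contrast. The part of a changed mix of tissues in the mitosis gene levels was not tested.

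Blood cell precursors also divide, and their markers were highest in group 4. Granulocyte precursor markers summed to 0.621, 0.938, 3.64 and 124 FPKM, and erythroid precursor markers to 6.31, 5.17, 4.77 and 29.0. Of 10 granulocyte precursor markers, 1 was tested and higher in group 3 than in group 1, Chi3l3, and 6 of 9 tested were higher in group 4. All genes gave shares of 2.52% and 5%. The markers summed to 0.621 FPKM in group 1, so in group 4 against group 1 the 9 met the filter only through group 4, which favoured a rise in them. Of the defining markers, Mpo was at 0.00731, 0, 0.0223 and 4.15 FPKM and Chi3l3 at 0.182, 0.621, 3.09 and 16.4. Of 10 erythroid precursor markers, 4 of 5 tested were higher in group 4 than in group 1, beside 5% of all genes. Only 1 was tested in group 3 against group 1, so the filter favoured a rise in group 4 here too. Their part in the mitosis gene levels was not tested. T and B lymphocyte markers were low in every group, at 2.40, 3.33, 6.63 and 6.40 FPKM in sum, and mature neutrophil markers summed to 9.08, 6.97, 21.3 and 37.0. Macrophage and pan-leukocyte markers summed to 200.5, 192.6, 129.5 and 165.2 FPKM. Their median folds against group 1 ran the other way from the sum, at 1.58 in group 3 and 1.23 in group 4, and 0 of 8 passed in either. Of 12 salivary gland markers, 10 had levels in all groups and summed to 4183, 2428, 3428 and 421 FPKM. They did not run 1 way by the authors' test. Pip, Car6 and Lpo were higher and Dcpp1, Dcpp2 and Dcpp3 lower in group 3 than in group 1. In group 4 against group 1, Lpo was higher and Dcpp1, Dcpp2, Dcpp3, Prb1 and Aqp5 were lower. All genes tested gave 37 of 13114 lower in group 3 and 512 of 13111 in group 4 than in group 1. Markers of tongue muscle and epithelium were abundant, with Ckm, muscle creatine kinase, at 5901, 5514, 2313 and 2856 FPKM, and Krt5 at 342, 473, 1220.2 and 1100.3.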

How the data were processed

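Tongue RNA was poly-A selected and sequenced on an Illumina HiSeq2000, per the labels' protocols and the series design text, which credits the levels to Cufflinks in FPKM with mm9 as the genome. GSNAP 2011.11.17 and edgeR are listed in the submitters' processing notes, with no role given. The deposited tables hold 1 FPKM value per gene and group, the authors' test statistic (a score), and the authors' p-value and q-value. Each deposited p-value matched a 2-sided normal p computed from its statistic (100% within 0.001), and the q-values matched a Benjamini-Hochberg adjustment over 92458 tests.

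Differences are log2(FPKM + 1), which understates those of low genes. Dividing the deposited log2 ratio by the statistic gave each SE, which the delta method put on that scale. For 15101 genes, least squares split the 6 squared errors into a variance for each of the 4 groups. These variances served for normal deviates, 2-sided, in the 3 contrasts of groups taken 2 against 2, with Benjamini-Hochberg adjustment in each. P-values measure only the spread between these samples, which may be technical. Coordinates are those of the deposited tables (mm9), counted from 1. The scripts were tested on simulated data.

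The members and the 17 other lists (297 genes, 288 found) were chosen with earlier results of these data known. All members are given with their levels; of other lists, the 2 members with the largest change in a comparison, those of counts of 5 or fewer, and cell type markers chosen after their values were seen. Alternatives were other thresholds, filters, pseudocounts, scaling and variance models, and, chosen after seeing the data, leaving out members at a merged locus. Python 3.11.15, numpy 2.4.6, scipy 1.17.1, pandas 2.3.3 and matplotlib 3.10.9 were used.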

Additional observations from a re-analysis of the deposited data

How the results depend on the processing

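Of 78 alternative values, 61 kept their direction and stayed within the limits set for a change. A filter of 5 FPKM, which leaves fewer members to test, gave 12 members past the test in group 3 and 14 in group 4 against group 1, 12 in group 4 against group 2, and 18 in the contrast of groups 3 and 4 with groups 1 and 2, in place of 28, 35, 28 and 37. At q under 0.01 the count against group 2 was 1 in group 3 and 16 in group 4, in place of 11 and 28. With 1 variance per gene for all groups, these counts against group 2 became 20 and 16. The cause was not tested, and no share of all genes stands beside these alternative counts. Since a pseudocount compresses low levels, the median difference depends on it. In group 3 against group 1 it was 1.36 with a pseudocount of 1, 2.24 with 0.1 and 2.43 with 0, and in group 4 against group 1 it was 1.26, 2.06 and 2.34. Against group 2 it was 1.08, 1.61 and 1.78 in group 3 and 1.02, 1.55 and 1.68 in group 4, and in group 2 against group 1 it was 0.47 with a pseudocount of 0, in place of 0.23. Centring on genes at 5 FPKM or more, whose median log2 ratio was -0.159 in group 4 against group 1, turned none of these medians.

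No paired analysis was possible because the deposited tables hold 1 value per group, with no sample to match or leave out. For the same reason depth is unknown, and the precision of a level is known only from the authors' statistic: the median SE of a member's log2 level was 0.262, 0.304, 0.562 and 0.362 in groups 1 to 4, so group 3 is the least certain.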
